A study of Mus musculus with 6 samples.

Results

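Heat shock proteins and DnaJ co-chaperones fold newly made and damaged proteins, and 62 of the 16331 gene probe sets measured in mouse liver belong to them. The members were chosen by gene symbol, with earlier results of these data known. The rule took the HSP90, HSP70, HSP110 and small heat shock protein genes with a number in their symbol and the mitochondrial chaperonin genes. It also took the Dnaja, Dnajb and Dnajc genes, and left out Hspbp1 and Hspb11 by name. The members comprise 21 heat shock protein genes, 40 DnaJ genes and Hspbap1. The symbol pattern admits Hspbap1 although its product is a partner of a small heat shock protein. By the usual place of the protein, 35 members are cytosolic or nuclear, 13 belong to the endoplasmic reticulum (ER), 7 to mitochondria and 4 to vesicles or endosomes, and 3 were not assigned. Hsp90aa1, Hsp90ab1, Hspa8, Hspb1, Hspd1 and the DnaJ genes Dnajc9, Dnajc13, Dnajc19, Dnajc25 and Dnajc30 were not analysed here.

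HSP70 proteins bind unfolded stretches of other proteins in a cycle driven by ATP, and DnaJ proteins, through their J domain, bring substrates to HSP70 and start ATP hydrolysis. HSP90 finishes the folding of signalling proteins, HSP110 proteins exchange the nucleotide of HSP70, small heat shock proteins hold aggregating proteins, and the chaperonin of mitochondria encloses its substrates. Heat shock factor 1 induces part of the cytosolic set and the mitochondrial chaperonin when proteins misfold. Unfolded proteins in the ER induce the ER set through ATF6, XBP1 and PERK. In hepatocytes the ER members serve the heavy secretion of plasma proteins.

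RNA was compared between 3 liver samples labelled wildtype (arrays 426, 428 and 430) and 3 labelled Ugcg-deficient (arrays 427, 429 and 431, called knockout below). Ugcg makes glucosylceramide, the precursor of most glycosphingolipids. Strain, age, sex, feeding, the way Ugcg was inactivated and the cells that lost it were not given in the sources used here. Nothing in the labels says whether samples came from separate animals, so p-values measure only the spread between these samples. All values are log2 expression values of 1 probe set per gene, and differences are knockout minus wildtype.

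Array medians lay between 6.79 and 6.81, and arrays correlated at 0.988 to 0.994 across probe sets. Wildtype 430 and knockout 427 stood apart from the other 4 arrays on the first principal component, which held 31.5% of the variance. Several results that rest on these arrays are given with and without them. The probe set of Ugcg read 6.81 to 6.87 on wildtype arrays and 7.12, 6.70 and 6.68 on knockouts 427, 429 and 431 (difference -0.0088, adjusted p = 0.998), so it did not separate the labels. Where its probes lie relative to the inactivated part was not given, so it does not check them. Summed on the linear scale, 9 of 10 hepatocyte markers with a value, albumin among them, lay between 130349 and 135059 on every array. Such a sum is weighted to the brightest of the 9. Taken singly, 3 of them had a positive and 6 a negative difference, from -0.08 to 0.43, and 1 was higher at an unadjusted p under 0.05. Of 14 exocrine pancreas markers, 11 had a value and all 11 were highest in wildtype 430, with a sum of 8235 there against 1948 and 1971 in the other wildtype arrays and 1631 to 2224 in knockout arrays. Of 14 markers of striated muscle, 13 had a value and 9 were highest in knockout 427, with a sum of 1860 against 1046 to 1086 elsewhere. Knockouts 429 and 431 also carried marker levels of their own: all 5 smooth muscle markers were highest in knockout 429 (sum 1177 against 570.3 to 700.1 elsewhere) and 4 of 5 adipose markers with a value, of 7 listed, in knockout 431 (895 against 474 to 538). Of 5 cholangiocyte markers with a value, of 6 listed, the sum was 597 in knockout 429 against 398 to 446, and the 8 Kupffer cell markers, all with a negative difference and none with an unadjusted p under 0.05, summed to 4529 in knockout 429 and 2875 in knockout 431 against 3603 to 4114. No marker can read 0 on this scale, and the part of RNA from these other cells in the results below was not tested. Cells that differ in number and RNA that differs per cell cannot be told apart in such bulk samples.

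No member passed the limma test (Benjamini-Hochberg adjusted p under 0.05 over all probe sets), against 0.0245% of all probe sets. The cytosolic co-chaperone gene Dnajb4 came nearest, with a 1.48-fold higher mean in knockout arrays (adjusted p = 0.152), and the adjusted p of the other 61 members lay between 0.951 and 1. At an unadjusted p under 0.05, 4 members were higher (Dnajb4, Dnajb2, Dnajc5 and Dnajc28), against 2.64% of all probe sets, and 0 were lower, against 2.35%. The groups did not overlap for 7 members, all with higher knockout values (those 4 with Dnajb13, Dnajc6 and Hspb9), against 5.1% of all probe sets in that direction and 4.47% in the other. Of these, Dnajc6 (5.72 to 5.88) and Hspb9 (5.86 to 5.995) lay near the lowest deposited value of 5.38 and each differed by 0.09. Of the 62 members, 43 had a positive and 19 a negative difference, with a median of 0.08. Over all probe sets 52.5% had a positive difference, the share to read beside later counts of positive differences, and the median was 0.01. Without wildtype 430 and knockout 427, 41 members were positive (median 0.06), as were 8360 of the 16331 probe sets.

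**Figure D1:**
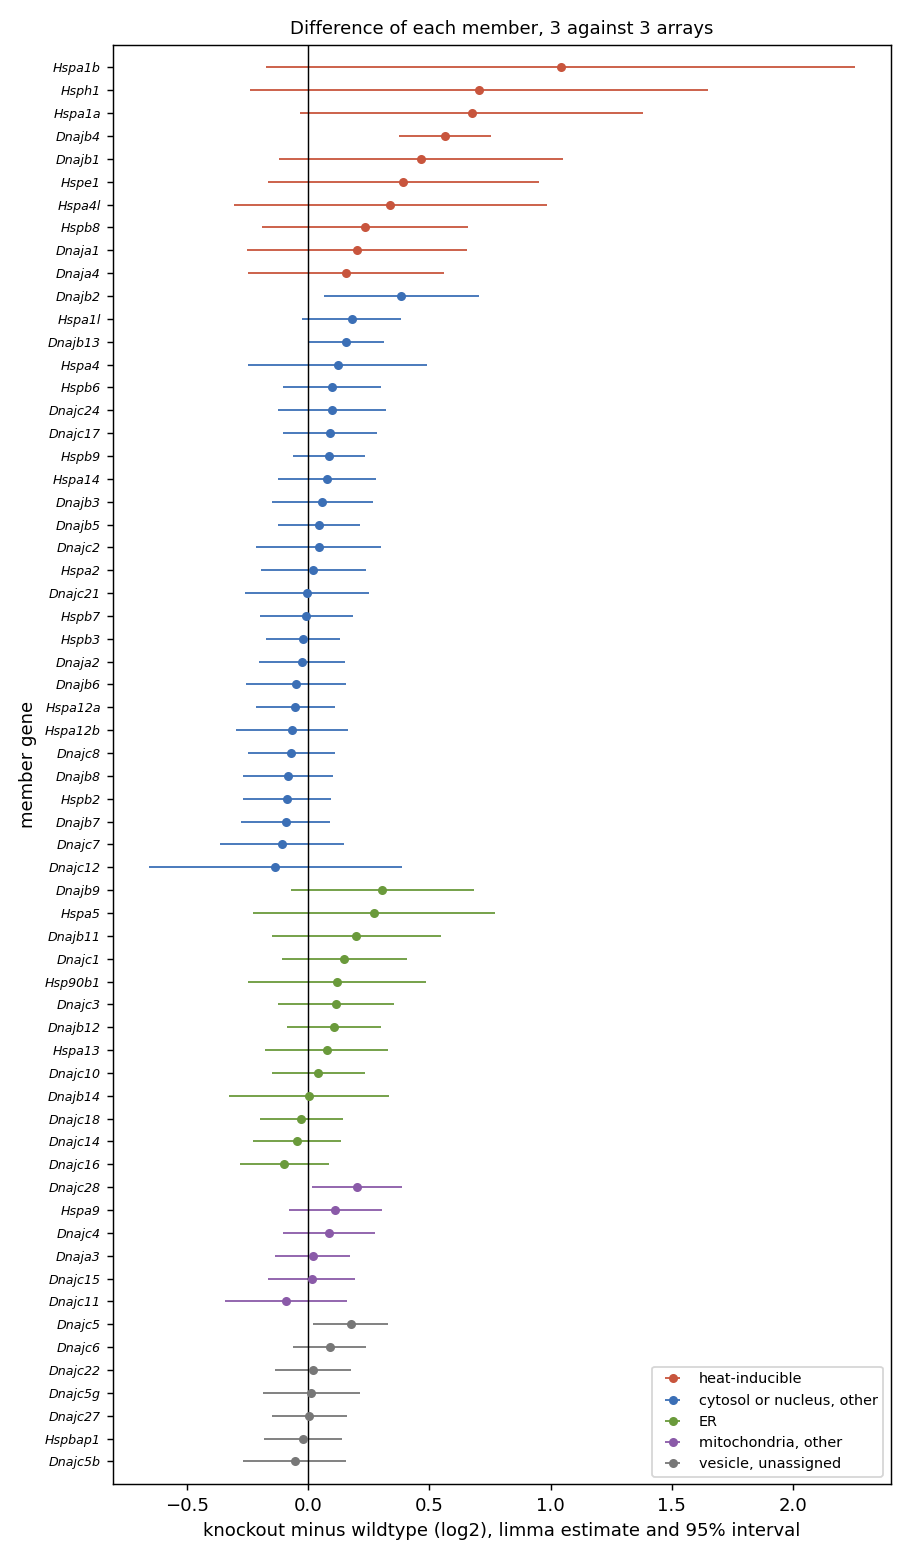
Knockout minus wildtype difference (log2) of each of the 62 members, with limma's 95% interval, coloured by place and by heat-inducibility. The 6 highest estimates belong to heat-inducible genes, among which Hspa1b has the widest interval (-0.17 to 2.26) and Dnajb4 the only one that leaves out 0 (0.37 to 0.76).

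Of the 62 members, 10 are textbook targets of heat shock factor 1: Hspa1a, Hspa1b, Hsph1, Hspa4l, Hspb8, Hspe1, Dnaja1, Dnaja4, Dnajb1 and Dnajb4. This class was drawn up with earlier results of these data known, so its counts describe these arrays and are not a test. All 10 had a positive difference, with a median of 0.43, but they were also among the most variable genes of the series. The residual standard deviation within groups lay above percentile 90 of all probe sets for 9 of the 10, and the exception was Dnajb4, at percentile 48.6. The same 9 genes had their highest value in knockout 427 and their second highest in wildtype 430, an order that 5.26% of all probe sets showed. So the spread that they shared ran across both genotypes.

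The promoter sequences of these genes are shown because heat shock factor 1 binds inverted repeats of GAA, and those of 3 ER genes because ATF6 binds the ER stress element. Windows from 250 bases before to 50 after each start site came from RefSeq (build GRCm38.p6), which held 52 of the 62 members. A pair of facing repeats, GAANNTTC, which reads the same on both strands, was found in the windows of 7 of the 10 heat-inducible members, against 9.04% of the 27025 genes in the table. It was also found in 5 other members (Dnajb6, Dnajc27, Dnajc5g, Hspb3 and Hspb6), 12 of the 52 in all. The longer form, with a further GAA 2 bases after that pair, was searched on both strands and contains the shorter. It was found in 2 of those 10 (Hspe1 and Hsph1) and in Dnajb6, against 0.662% of genes. The matches in Hsph1 and Hspb8 lay just after the start site and are not shown, and Dnajb1, Dnajb4 and Hspa4l held neither pattern in this window. The ER stress element, CCAAT and CCACG 9 bases apart on either strand, was found in Hspa5, Hsp90b1 and Dnajc3 among 11 ER members with a window, and in 0.137% of all genes. Neither GAA pattern occurred in the windows of the 11 ER members, which says only that these letters are not in these windows. A match is a string of letters and not a shown binding site. In the lines that follow each sequence runs 5′ to 3′ on the gene's strand, upstream of the start site, with the matched letters in capitals; Hspa1a has the same letters as Hspa1b over the stretch shown.
Hspa1b, chr17:34959305-34959372, minus strand: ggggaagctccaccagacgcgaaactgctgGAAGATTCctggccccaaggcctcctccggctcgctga
Hspe1, chr1:55088029-55088106, plus strand: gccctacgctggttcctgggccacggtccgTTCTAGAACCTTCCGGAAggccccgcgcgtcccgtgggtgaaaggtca
Dnaja1, chr4:40722314-40722381, plus strand: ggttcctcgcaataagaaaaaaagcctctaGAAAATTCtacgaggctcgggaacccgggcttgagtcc
Dnaja4, chr9:54699439-54699544, plus strand: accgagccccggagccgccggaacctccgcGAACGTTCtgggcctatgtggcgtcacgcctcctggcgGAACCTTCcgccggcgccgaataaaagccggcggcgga
Hspa5, chr2:34771995-34772073, plus strand: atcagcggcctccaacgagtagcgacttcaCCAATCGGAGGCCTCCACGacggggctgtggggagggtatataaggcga
Hsp90b1, chr10:86705503-86705686, minus strand: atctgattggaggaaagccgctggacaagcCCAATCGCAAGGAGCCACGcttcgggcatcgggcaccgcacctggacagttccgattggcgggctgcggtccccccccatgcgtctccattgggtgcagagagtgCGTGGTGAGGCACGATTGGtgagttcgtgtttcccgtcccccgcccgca
Dnajc3, chr14:118937797-118937875, plus strand: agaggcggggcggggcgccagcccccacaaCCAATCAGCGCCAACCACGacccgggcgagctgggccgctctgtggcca

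Hspa1b encodes the inducible cytosolic HSP70, the classic marker of the heat shock response. It read 8.93, 8.74 and 9.998 on wildtype arrays 426, 428 and 430, and 11.60, 9.32 and 9.87 on knockout arrays 427, 429 and 431. Wildtype 430 lay above knockouts 429 and 431, so the groups overlapped, and the highest and lowest arrays differed 7.28-fold. The means were 9.22 ± 0.68 and 10.26 ± 1.19 (SD, n = 3 each), a difference of 1.04 (SE 0.536, 95% interval -0.17 to 2.26, adjusted p = 0.982). It was 0.37 without knockout 427 and at most 1.51, without knockout 429. Its neighbour Hspa1a encodes a nearly identical HSP70 and has a promoter with 247 of 250 bases before the start site in common, so probes may not separate the pair. Hspa1a read 5.99, 5.91 and 6.52 on wildtype arrays and 7.63, 6.31 and 6.504 on knockout arrays, in the same order of arrays as Hspa1b. Its values on wildtypes 426 and 428 lay near the lowest deposited value of 5.38, and a filter on dim probe sets left it out. Its difference was 0.67 (95% interval -0.03 to 1.38, adjusted p = 0.982) and 0.27 without knockout 427.

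Hsph1, an HSP110 that exchanges nucleotide on HSP70 and resolves aggregates, read 8.91, 8.75 and 10.17 on wildtype arrays and 10.80, 9.44 and 9.70 on knockout arrays. Again knockout 427 and wildtype 430 lay highest, and the range over arrays was 4.14-fold. The difference was 0.71 (SE 0.416, adjusted p = 0.982), 0.29 without knockout 427 and 1.15 without wildtype 430. Hspa4l, a second HSP110, read 7.71, 7.59 and 8.40 on wildtype arrays and 8.89, 7.90 and 7.92 on knockout arrays. The same arrays were highest, and its difference of 0.34 was 0.01 without knockout 427.

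Dnajb1, the main J-domain partner of inducible HSP70, read 8.51, 8.53 and 8.81 on wildtype arrays and 9.80, 8.67 and 8.78 on knockout arrays. Knockout 427 stood alone here, and the difference of 0.47 (adjusted p = 0.982) was 0.11 without it. Dnaja1, a farnesylated J-domain protein that also serves mitochondrial import, read 11.83, 11.78 and 12.41 on wildtype arrays and 12.60, 11.97 and 12.05 on knockout arrays. The values of wildtype 430 and knockout 427 were close to each other, and the difference of 0.20 was 0.01 without knockout 427. Dnaja4 read 6.94, 7.07 and 7.34 on wildtype and 7.71, 7.02 and 7.09 on knockout arrays, and its difference turned from 0.16 to -0.06 without knockout 427. Hspb8, a small heat shock protein that works with BAG3 in selective autophagy, read 10.09, 9.89 and 10.44 on wildtype and 10.78, 10.08 and 10.27 on knockout arrays. Its groups overlapped, with a difference of 0.24, and of 0.03 without knockout 427.

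**Figure D2:**
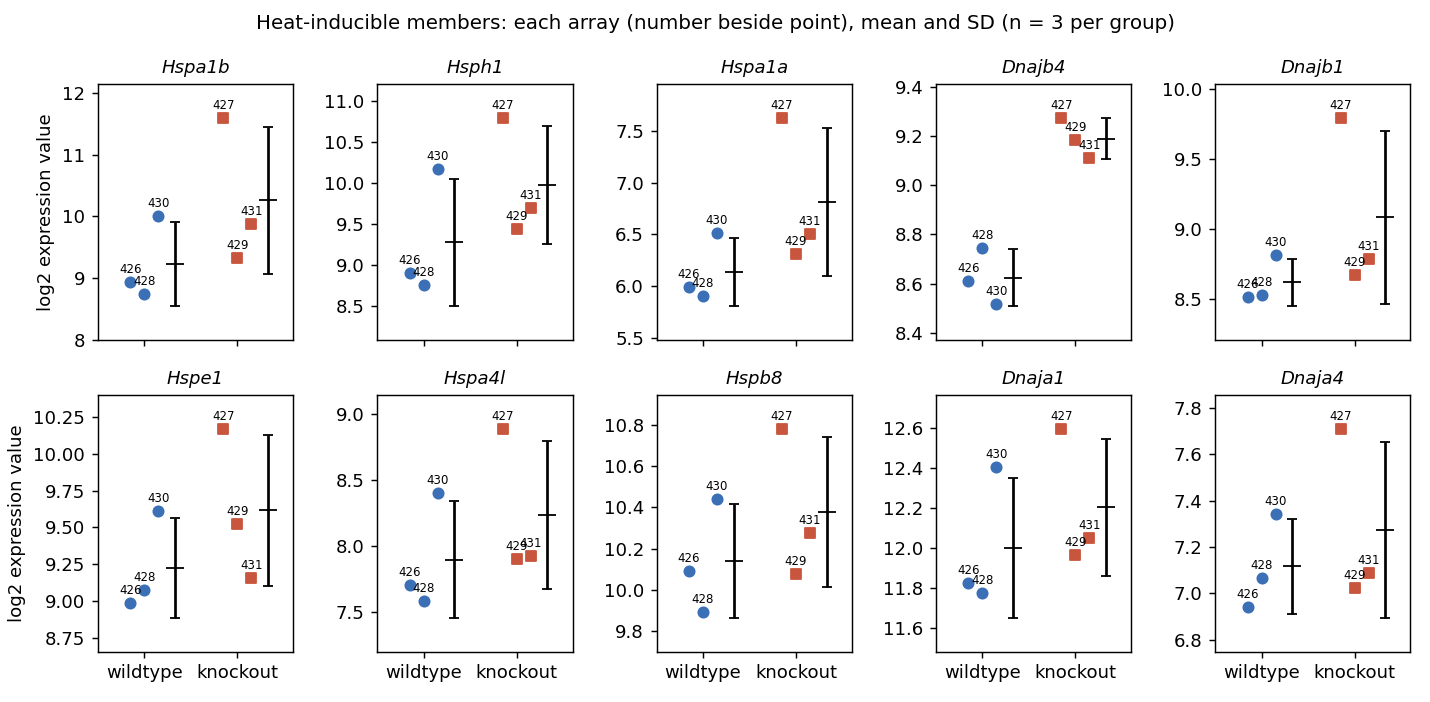
Log2 expression values of the 10 heat-inducible members on each array, with the array number above each point and the mean ± SD (n = 3) at the right of each group. In 9 panels knockout 427 is highest and wildtype 430 second, whereas in the panel of Dnajb4 all wildtype arrays lie between 8.52 and 8.75 and all knockout arrays between 9.11 and 9.28.

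Dnajb4, a cytosolic J-domain protein closely related to Dnajb1, behaved otherwise. It read 8.61, 8.75 and 8.52 on wildtype arrays and 9.28, 9.18 and 9.11 on knockout arrays. Wildtype 430, second highest for the other heat-inducible genes, gave the lowest value here, and the groups were apart. The means were 8.62 ± 0.12 and 9.19 ± 0.08 (SD, n = 3 each), a difference of 0.57 (SE 0.0840, 95% interval 0.37 to 0.76, adjusted p = 0.152). The difference ran from 0.51 to 0.63 when 1 array was left out. Over the 13 other fits its adjusted p ran from 0.126 to 0.568, so it passed in none of them.

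Without knockout 427 alone, 9 of the 10 heat-inducible members had a positive difference, with a median of 0.11. When wildtype 430 and knockout 427 were both left out, all 10 had a positive difference, with a median of 0.29. Knockouts 429 and 431 both lay above wildtypes 426 and 428 for 8 of the 10, with Hspb8 and Dnaja4 as the exceptions, and for 25 of the 62 members. That order also held for 7 of the 13 ER members, 6 of the 26 cytosolic members that are not heat-inducible and 1 of the 6 mitochondrial members other than Hspe1. Among the partner lists described below it held for 10 of 16 HSP90 co-chaperones, 6 of 9 further heat shock factor targets and 7 of 18 ER folding partners. It held for 2 of 9 regulators of HSP70 nucleotide exchange, 1 of 7 CCT subunits and 1 of 11 mitochondrial partners. For the 6 prefoldin subunits and the 4 heat shock factor genes and regulators the count was 0. Over all probe sets 17.7% showed that order and 16.9% the reverse, which 5 members showed. Hsph1 differed by 0.74, Hspa1b by 0.76 and Hspa1a by 0.46 in this fit. At an unadjusted p under 0.05, 12 members were higher, against 3.53% of probe sets, and 1 (Dnajc12, at -0.55) was lower, against 3.22%. Of the 12 higher members 7 were heat-inducible, and the others were Dnajb2, Dnajb9, Dnajc5, Hspa4 and Hspa5. None passed after adjustment, the smallest adjusted p being 0.134 for Hsph1. These arrays were left out after they were seen to stand apart, which takes away most of the spread of the heat-inducible genes, so these counts describe the remaining 4 arrays. Both remaining knockout arrays carried the smooth muscle or adipose markers given above, whose part in these counts was not tested.

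**Figure D3:**
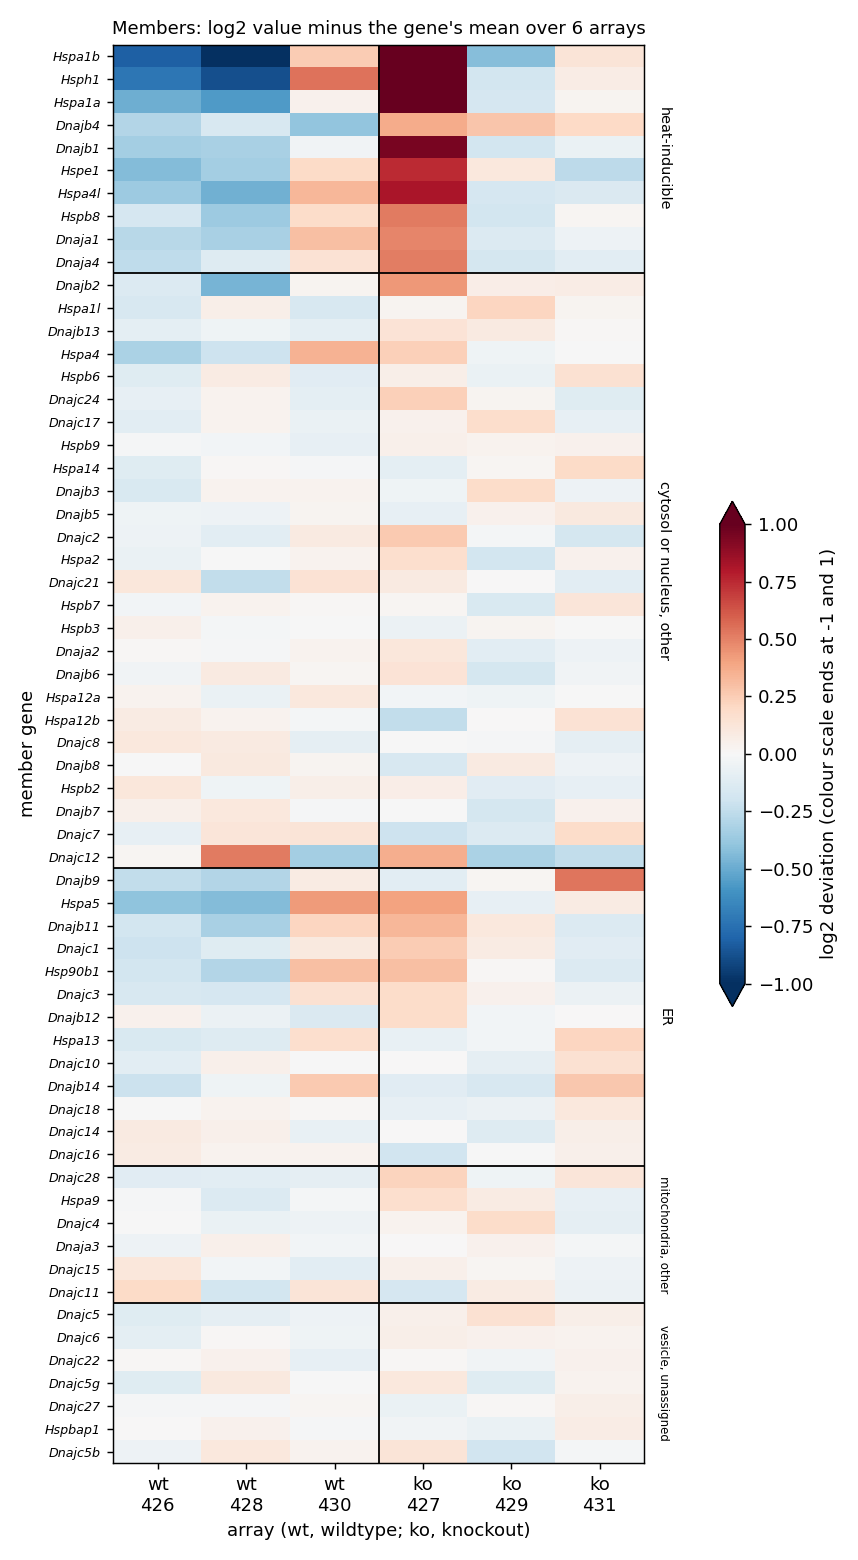
Log2 value of each member on each array minus the mean of that gene over the 6 arrays, with members grouped by heat-inducibility and place and ordered by difference; the colours end at -1 and 1. The heat-inducible block is darkest in knockout 427 and is low in wildtypes 426 and 428. It has weaker positive values in wildtype 430 for most genes (not Dnajb1 or Dnajb4). Most other cytosolic and mitochondrial rows are pale.

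Among the cytosolic members that are not heat-inducible, Dnajb2, whose product carries ubiquitin-binding motifs and hands HSP70 clients to the proteasome, read 9.04, 8.72 and 9.21 on wildtype arrays and 9.62, 9.25 and 9.26 on knockout arrays. Its groups were apart by a narrow margin, with wildtype 430 just below knockout 429, and it differed by 0.38 (SE 0.141, adjusted p = 0.951). The difference was 0.25 without wildtype 428, the lowest array. Over all 26 cytosolic members that are not heat-inducible, 13 differences were positive and 13 negative, with a median of 0.01. Their values changed little between arrays, with a median range of 0.30 on the log2 scale, against 1.24 for the heat-inducible members and 0.28 for all probe sets.

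Among them the HSP110 gene Hspa4 was highest in wildtype 430 and second in knockout 427, the reverse of the heat-inducible order, with 9.42 in wildtype 430 and 9.32 in knockout 427 against 8.76 to 9.07 on the other arrays. Dnajc12, which binds the aromatic amino acid hydroxylases of the liver, had a wider range and another order, with 8.90 in wildtype 428 and 8.73 in knockout 427 as the highest and 8.04 in wildtype 430 as the lowest. Its difference of -0.14 was the most negative of all members (95% interval -0.66 to 0.39). It was 0.09 without wildtype 428 and -0.55 without wildtype 430 and knockout 427. Hspa1l, the testis-rich gene beside Hspa1a and Hspa1b, read 5.81, 6.03 and 5.81 on wildtype and 6.003, 6.19 and 6.003 on knockout arrays and did not share their order. It differed by 0.18, and by 0.12 without knockout 429, with values near the lowest deposited value of 5.38. Of the small heat shock proteins rich in muscle, Hspb2 (6.54 to 6.70 on wildtype and 6.46 to 6.65 on knockout arrays), Hspb3 (6.31 to 6.38 and 6.27 to 6.36), Hspb6 (7.96 to 8.17 and 8.02 to 8.24) and Hspb7 (6.04 to 6.11 and 5.92 to 6.20) overlapped between groups. Hspb9, of testis, read 5.86 to 5.93 on wildtype and 5.98 to 5.995 on knockout arrays, a separation of groups at a difference of 0.09.

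The 13 ER members had 10 positive and 3 negative differences, with a median of 0.11, and none reached an unadjusted p under 0.05 over all arrays. Without wildtype 430 and knockout 427, 10 were positive, with a median of 0.16. Hspa5 (BiP), the HSP70 of the ER and the sensor-binding chaperone of the unfolded protein response, read 12.08, 12.05 and 12.91 on wildtype arrays and 12.88, 12.40 and 12.56 on knockout arrays. Wildtype 430 was highest and wildtypes 426 and 428 lowest, so that the groups overlapped with a difference of 0.27 (SE 0.220, adjusted p = 0.982). The difference was 0.12 without wildtype 428, 0.14 without wildtype 426 or knockout 427, 0.55 without wildtype 430, and 0.42 without wildtype 430 and knockout 427 together.

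Hsp90b1, the HSP90 of the ER, read 11.88, 11.77 and 12.36 on wildtype and 12.36, 12.08 and 11.93 on knockout arrays. Its difference of 0.12 was -0.0013 without knockout 427, 0.0013 without wildtype 428 and 0.30 without wildtype 430. Dnajb11, which recruits BiP to new proteins, read 8.72, 8.59 and 9.12 on wildtype and 9.24, 9.01 and 8.78 on knockout arrays, and Dnajc3, which also restrains PERK, read 9.89, 9.89 and 10.21 against 10.24, 10.10 and 9.995. Both had their highest values in knockout 427 and wildtype 430, with differences of 0.20 and 0.12 that did not pass. Without knockout 427 these were 0.08 and 0.05, and without wildtype 430 they were 0.35 and 0.22. Wildtype 430 also had the highest pancreas markers, whose part in its ER values was not tested. Of the 13 ER members, 5 had these arrays as their highest pair (Hspa5, Hsp90b1, Dnajb11, Dnajc1 and Dnajc3), against 9.37% of all probe sets. All 3 genes with the ER stress element shown above are among the 5, but a part of the element in this order was not tested. The GAA patterns and the order of arrays did not go together throughout. Dnajb1 and Hspa4l held neither pattern and had knockout 427 highest and wildtype 430 second. Dnajb6, Dnajc27, Dnajc5g, Hspb3 and Hspb6 held the shorter pattern and did not have that order.

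Dnajb9, which helps BiP hold back IRE1 and is itself a target of XBP1, departed from this order. It read 10.60, 10.55 and 10.93 on wildtype arrays and 10.74, 10.87 and 11.38 on knockout arrays, with knockout 431 highest. Its difference of 0.30 (adjusted p = 0.982) was 0.11 without knockout 431. Hspa13, a microsomal HSP70, was likewise highest in knockout 431 (8.87) and next in wildtype 430 (8.82), as was Dnajb14 of the ER membrane (7.58 and 7.56). For Dnajb12, Dnajc10, Dnajc14, Dnajc16 and Dnajc18 the differences lay between -0.10 and 0.11, and the groups overlapped.

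The 7 mitochondrial members had 6 positive differences and 1 negative, with a median of 0.09. Hspe1, the lid of the mitochondrial chaperonin, followed the heat-inducible cytosolic genes. It read 8.98, 9.08 and 9.61 on wildtype arrays and 10.17, 9.52 and 9.16 on knockout arrays, a difference of 0.39 (SE 0.246, adjusted p = 0.982) and of 0.12 without knockout 427. Hspa9, the HSP70 that draws precursors into the matrix, stayed within a narrow range, at 10.10, 9.98 and 10.09 on wildtype and 10.28, 10.20 and 10.04 on knockout arrays. Its difference was 0.11 (95% interval -0.08 to 0.30), and 0.06 without knockout 427, and the groups overlapped. Dnaja3, its matrix J-domain partner, read 8.97 to 9.07 on both groups of arrays, and Dnajc15, of the import motor, 9.95 to 10.17 on wildtype and 10.01 to 10.11 on knockout arrays. Dnajc28 read 6.86, 6.87 and 6.88 on wildtype and 7.19, 6.93 and 7.09 on knockout arrays. Its groups were apart, with a difference of 0.20 (SE 0.0813, adjusted p = 0.981). Without wildtype 430 and knockout 427 the 6 mitochondrial members other than Hspe1 had 5 positive differences and a median of 0.04.

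Of the 4 vesicle or endosome members, Dnajc5, the cysteine string protein that guards vesicle fusion proteins, read 7.51, 7.54 and 7.58 on wildtype arrays and 7.68, 7.78 and 7.69 on knockout arrays. All knockout arrays lay above all wildtype arrays, with a difference of 0.18 (SE 0.0684, adjusted p = 0.956). Dnajc6, the neuronal auxilin, read 5.72 to 5.83 and 5.86 to 5.88, and Dnajc5b and Dnajc5g, the other cysteine string proteins, overlapped between groups. The 3 unassigned members, Dnajc22, Dnajc27 and Hspbap1, differed by -0.02 to 0.02.

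Partners of the chaperones were taken from lists of textbook pathway genes, and no partner passed after adjustment. Some genes stand in more than 1 list. Of 9 further heat shock factor targets with a value, 8 differences were positive and 1 negative, with a median of 0.23. Without knockout 427, 7 of the 9 were positive (median 0.06). Without wildtype 430 and knockout 427 together 7 were (median 0.24). The residual standard deviation lay above percentile 90 of all probe sets for 7 of the 9. Bag3, the HSP70 co-chaperone that pairs with Hspb8, read 9.26, 8.71 and 9.43 on wildtype arrays and 9.66, 9.54 and 9.73 on knockout arrays, so that the groups were apart, with a difference of 0.51 (adjusted p = 0.951), and of 0.30 without wildtype 428. Fkbp4, an HSP90 partner of steroid receptors, read 9.996, 9.77 and 10.26 on wildtype and 10.55, 10.20 and 10.29 on knockout arrays. Its groups overlapped, with a difference of 0.34 (adjusted p = 0.960), and of 0.22 without wildtype 428. Of 16 HSP90 co-chaperones, 12 were positive and 4 negative (median 0.10), and Rpap3 differed by 0.14 (0.09 without knockout 427). Of 7 subunits of the cytosolic chaperonin CCT, which folds actin and tubulin, 6 were positive (median 0.11), with 0.19 for Cct7 and 0.18 for Cct3 (0.06 and 0.05 without knockout 427). The order with knockout 427 highest and wildtype 430 second held for 5 of the 7 subunits. Without knockout 427, 3 of the 7 were positive (median -0.0020), and without wildtype 430 and knockout 427 together 6 were (median 0.03).

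Of 9 regulators of HSP70 nucleotide exchange, Bag3 among them, 5 were positive and 4 negative (median 0.06), and Bag4 differed by -0.15. Of 18 ER folding partners, 14 were positive and 4 negative (median 0.08). Ddit3, the CHOP transcription factor, read 7.29, 7.51 and 7.21 on wildtype and 7.57, 7.83 and 7.58 on knockout arrays. Its groups were apart, with a difference of 0.32 (adjusted p = 0.951), and the BiP exchange factor Sil1 differed by 0.19. Wildtype 430 was the highest array for 8 of the 18. Of 11 mitochondrial partners, 3 were positive and 8 negative (median -0.05), with Hscb, a J-domain protein of iron-sulfur cluster assembly, at -0.28 and the exchange factor Grpel2 at -0.25. Hscb differed by -0.18 without wildtype 428 and Grpel2 by -0.15 without wildtype 426. Of 6 prefoldin subunits, 4 were positive (median 0.03), with Pfdn4 at 0.18 and Vbp1 at -0.08, which was 0.0054 without knockout 431. The 4 heat shock factor genes and regulators with a value had differences from -0.08 for Hsf2 to 0.09 for Hsf4, and Hsf1 was not analysed here.

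**Figure D4:**
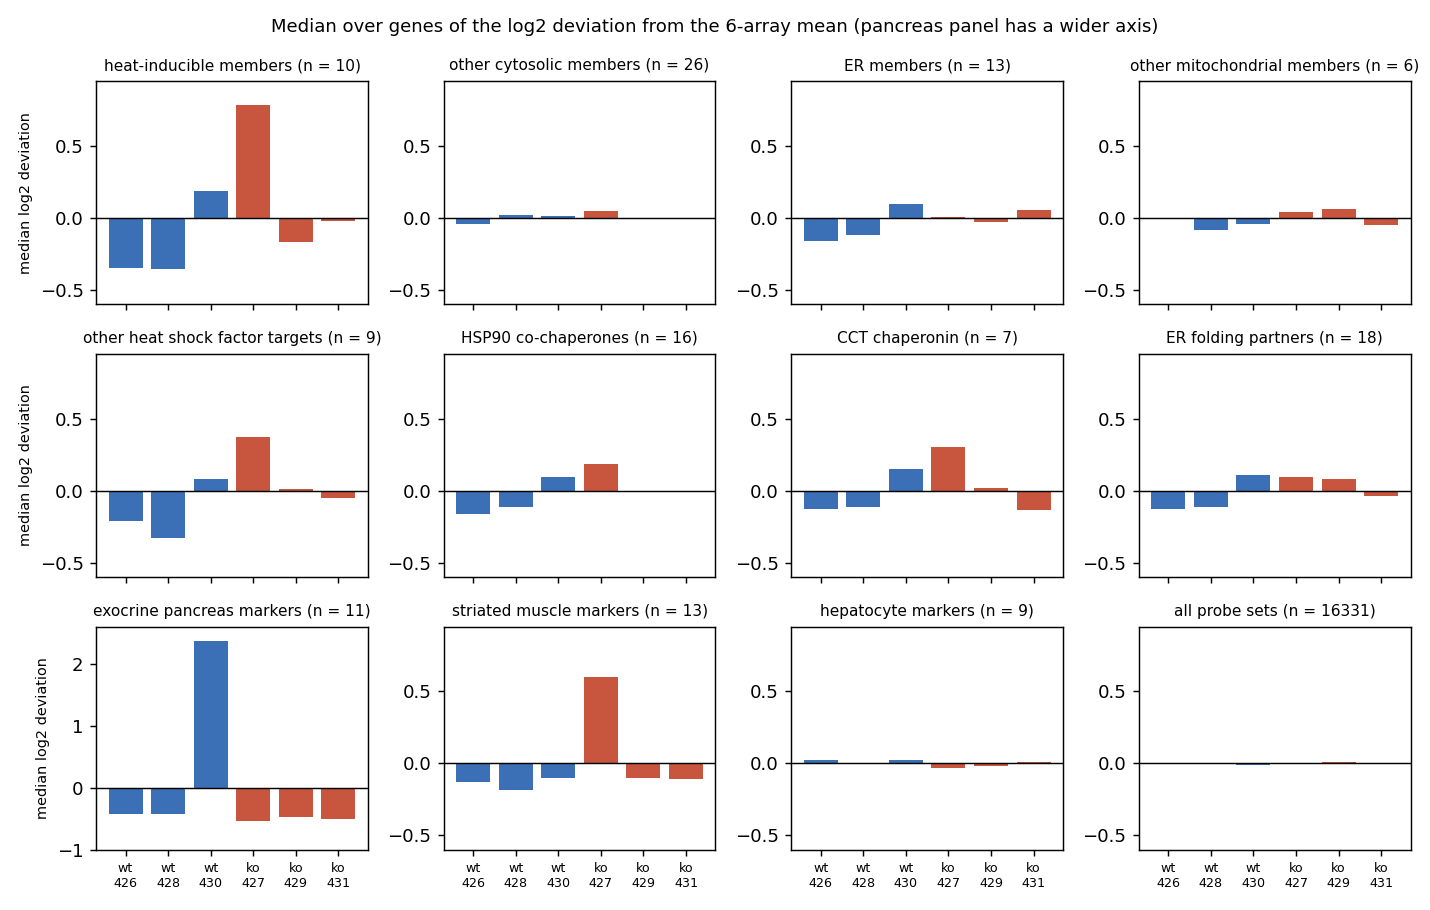
Median over the genes of each list of the log2 deviation from the mean of the 6 arrays, 1 bar per array (blue wildtype, red knockout), with a wider axis for the pancreas markers. The heat-inducible members have medians of 0.78 in knockout 427 and 0.19 in wildtype 430 against -0.35 in wildtypes 426 and 428, the pancreas markers are high in wildtype 430 with 2.36, and the muscle markers in knockout 427 with 0.60.

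The per-array medians set the lists side by side. The heat-inducible members deviated from their 6-array means by a median of -0.35, -0.35 and 0.19 on wildtype arrays 426, 428 and 430 and of 0.78, -0.17 and -0.02 on knockout arrays 427, 429 and 431. The other heat shock factor targets had -0.21, -0.33 and 0.08, then 0.37, 0.01 and -0.05, with the same array highest. ER members had -0.16, -0.12 and 0.10, then 0.0046, -0.03 and 0.06, a smaller spread in which wildtype 430 was highest. Of these, Dnajb12, Dnajb14, Dnajc14, Dnajc16 and Dnajc18 are less surely placed or face the cytosol. The 8 ER members without them had -0.19, -0.23 and 0.16, then 0.22, 0.02 and 0.01, with knockout 427 highest. The medians of cytosolic members that are not heat-inducible stayed between -0.04 and 0.05. The control probe sets allow a look at RNA quality, as the log2 difference between the 3′ and 5′ ends of a transcript. For Gapdh it was 0.126 in wildtype 430 and 0.0947 in knockout 427, the 2 highest, against -0.0166 to 0.0742 on the other arrays. For the transferrin receptor it was 0.649 and 0.651, also the 2 highest, against 0.339 to 0.601. In the other 3 of 5 controls these arrays did not go together. For beta-actin it was 0.691 in wildtype 430, the lowest, and 0.939 in knockout 427, the highest. For pyruvate carboxylase it was 3.25 in wildtype 430, the highest, and 2.87 in knockout 427, the lowest. For 18S RNA it was 0.197 in wildtype 430, the highest, and -0.0264 in knockout 427, within the range of the others. The part of RNA quality in the heat-inducible values was not tested.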

How the data were processed

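Liver RNA was labelled with biotin as cRNA for Affymetrix arrays, per the labels' protocols. The authors deposited log2 expression values (recognised from their range of 5.38 to 14.69), with 1 row for each Entrez gene number. Background correction, normalization and software were not given in the sources used here. Values were used as deposited. Of 16395 rows, 64 controls were left out and 15644 of the other 16331 carried a symbol in the platform annotation. The table holds no detection calls, and 6 arrays limit how precisely differences are known.

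Groups came from the sample titles. Knockout was compared with wildtype over all 16331 probe sets with limma 3.58.1 (R 4.3.3; lmFit, eBayes), two-sided, 4 residual and 4.85 prior degrees of freedom, Benjamini-Hochberg adjusted. The step was tested on simulated data. Lists, per-array orders and motifs are described without a test. Members and lists were chosen with earlier results of these data known. Values on every array are given for textbook members, those with an unadjusted p under 0.05 and the 2 smallest p-values per family, 21 members in all, and differences for the 2 partners with the smallest p per list. Further members (among them Hspa4, Dnajc12, Hspb2, Hspb3, Hspb6, Hspb7, Hspa13, Dnajb14 and Dnajc6) were named after their values were seen. Alternatives covered normalization, a filter on dim probe sets, variance model, weights, adjustment, thresholds and each array left out. A fit without both wildtype 430 and knockout 427 was chosen after seeing the data. Figures used matplotlib 3.10.9 (Python 3.11.15).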

Additional observations from a re-analysis of the deposited data

How the results depend on the processing

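The count of members past the threshold was 0 in every fit with an adjusted p under 0.05 or 0.10, and 4 at an unadjusted p under 0.05. Over all probe sets 4 passed, against 8 with array quality weights, 8 at an adjusted p under 0.10, 8 without wildtype 430 and knockout 427, 815 at an unadjusted p under 0.05, and 0 to 4 when 1 array was left out. When 1 array was left out, the median difference ran from 0.0128 to 0.0903 for cytosolic, 0.0513 to 0.179 for ER, 0.0154 to 0.152 for mitochondrial and 0.113 to 0.611 for heat-inducible members. The mitochondrial median was 0.0189 without Dnajc4 and Dnajc28, whose place is less sure. The ER median was 0.134 without Dnajb12, Dnajb14, Dnajc14, Dnajc16 and Dnajc18, which are less surely placed or face the cytosol. Of the 21 members with values on every array, 19 kept their direction in all these fits that held them. Dnaja4 (-0.0606 to 0.282) and Hsp90b1 (-0.00130 to 0.298) turned without knockout 427. The filter on dim probe sets kept 45 of the 62 members. Among the 21 members with values on every array it kept 18 and left out Hspa1a, Hspa1l and Hspb9. No paired analysis was possible because the groups share no replicate number.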
